A study of Drosophila melanogaster with 12 samples.

Results

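Broad H1 domains are merged regions of the fly genome with ChIP-seq peaks of the somatic linker histone H1 in all 4 H1 libraries. The domains were found by merging the peaks of the 4 H1 lists wherever these overlapped by at least 1 bp. Merged regions were kept if they held a peak of all 4 lists and spanned 6000 bp or more. A base shared by all 4 lists was not required. Merging gave 6653 regions. All 4 lists had a peak on 1441 of them, and 446 of those met the width minimum. The other 995 regions held by all 4 lists were under 6000 bp and are called narrow regions below. The H1 peaks chose the domains, so widths, H1 peak numbers and H1 scores describe them and are not tested. The dBigH1 lists played no part in the choice.

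The study is of Drosophila melanogaster S2 cells, an established line of embryonic origin, profiled by chromatin immunoprecipitation and sequencing. Control cells are labelled wt, and induced cells are labelled as induced at 1 mM to carry wild-type BigH1. Each was profiled in 2 replicates with a polyclonal antibody against H1, in 2 replicates with a polyclonal antibody against dBigH1, and as input. The protocol gives 1 mM copper sulphate for 24 h to every sample in the same words, so whether the control cells received copper is not known. The growth protocol describes tagged dBigH1 lines kept under hygromycin B, and the labels do not say whether such a line is 1 clone or a pool. The identity of the cells was not checked here, because peak lists hold no expression values. Nothing in the labels says that replicates came from separate cultures.

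Linker histones sit where DNA enters and leaves the nucleosome and help to fold chromatin into compact fibres. H1 is the linker histone of fly somatic cells, and dBigH1 takes its place in the early embryo and in the germline. A peak marks a place where the signal rose over the background that the peak caller used, which is not given here. Because linker histones are spread along most chromatin, the lack of a peak does not show that the protein was absent.

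The H1 lists held 3545 to 5182 peaks and the dBigH1 lists 196 to 719, of which the 2 shortest came from induced cells. The lists give no read counts, so the depth behind each peak is unknown. Nor do they show whether control cells held dBigH1 protein. A dBigH1 peak below is a peak called with the dBigH1 antibody. Positions are those of build dm3. Genes within the domains and their sequences were not used here.

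The 446 domains added up to 3.96 Mb, or 52.3% of the length of all regions held by the 4 lists. Their width had a median of 7784 bp, with quartiles at 6729 and 9819 bp. The narrowest was 6000 bp and the widest 26945 bp, at 2R 6808655 to 6835599. Only 106 domains reached 10000 bp and 5 reached 20000 bp, while 139 were under 7000 bp. The domains just inside the minimum, 3R 5946037 to 5952036 (6000 bp), 3R 8731885 to 8737886 and 3R 13562704 to 13568705 (both 6002 bp), differed little in width from those just outside it. Those were 2L 8890172 to 8896166 (5995 bp), U 130901 to 136891 (5991 bp) and 3L 20669192 to 20675174 (5983 bp). The minimum thus cuts through a continuous range of widths.

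Few of the domains were single broad peaks. In each list a peak of 6000 bp or more lay in 66 domains (control replicate 1), 141 (control replicate 2), 70 (induced replicate 1) and 173 (induced replicate 2). Only 18 domains had such a peak in all 4 lists, and 185 had none in any list, so their width arose from chaining shorter peaks of different libraries. A single peak in each of the 4 lists made up 67 domains (15.0%), against 713 of the 995 narrow regions (71.7%). Taking the 4 lists together, a domain held a median of 7 peaks and at most 20, and a narrow region a median of 4. The label broad therefore applies to the merged region more than to the peaks in it.

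The 4 H1 lists met on only part of the domain length. On the summed length, 35.5% of the bases lay in a peak of all 4 lists and 12.2% in a peak of 1 list only. For narrow regions these shares were 54.0% and 10.2%. The longest stretch called in all 4 lists had a median of 2017 bp in domains and 1670 bp in narrow regions, so the shared stretch was much closer between the classes than the merged width. In 58 domains (13.0%) no base at all was called in all 4 lists, which was also true of 47 narrow regions (4.72%). The widest domain was one of these. At the other end, 16 domains had a shared stretch of 6000 bp or more. The longest was 9554 bp in 2L 18299713 to 18309369, followed by 9461 bp in 2L 14589337 to 14598951, 9139 bp in 2L 15237181 to 15246546, 7830 bp in 2L 16097314 to 16105378 and 7649 bp in 3L 5997484 to 6005295. In these 5 domains the shared stretch filled 97.1% to 98.9% of the merged width.

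**Figure D1:**
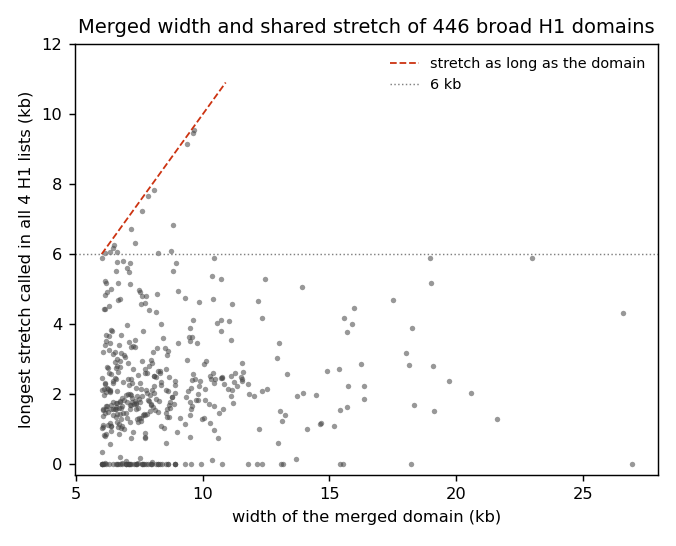
Width of each merged domain in kb (x axis) against the longest stretch called in all 4 H1 lists in kb (y axis), 1 point per domain (446 domains). Most points lie far under the dashed line of equal length, 58 lie at 0, and 16 reach the dotted line at 6 kb.

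The share of domain length under H1 peaks went with the replicate number more than with the condition. It was 60.7% in control replicate 1 and 79.2% in control replicate 2, and 66.7% in induced replicate 1 and 82.2% in induced replicate 2. The replicate 2 lists were the longer ones in both conditions. Bases called in both control lists and in no induced list made up 3.22% of domain length, and bases called in both induced lists and in no control list 3.84%.

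Domains stood higher in the H1 score lists than narrow regions. The score is the value that the authors' peak caller gave each peak, and rank 1 is the highest score of a list. The best peak of a domain had a median rank at 22.7% of the list in control replicate 1, 13.7% in control replicate 2, 20.8% in induced replicate 1 and 13.3% in induced replicate 2. For narrow regions the medians were 40.2%, 34.0%, 40.1% and 28.1%. The ranges were wide and overlapped in every list, and a domain has more peaks from which the best is taken. Across the 446 domains, width and mean rank were weakly related (Spearman's rho = -0.22, wider domains ranking higher), a description over regions that share the same 4 libraries. Of the 100 highest peaks of a list, 31, 54, 43 and 55 lay in domains in the same order of libraries, and 26, 17, 29 and 25 in narrow regions. Of the 500 highest, 167, 200, 175 and 205 lay in domains and 158, 127, 187 and 176 in narrow regions. Over the whole lists narrow regions held more peaks, with 29.0%, 22.3%, 30.8% and 21.3% against 20.7%, 16.7%, 21.5% and 14.6% in domains.

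**Figure D2:**
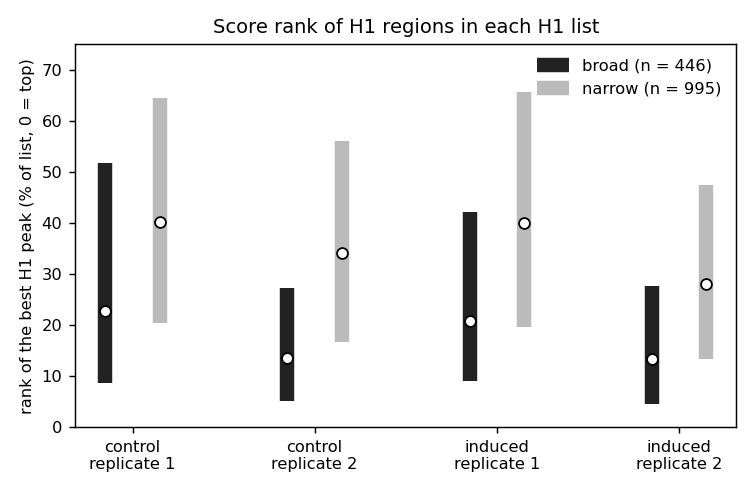
Rank of the best H1 peak of a region as a percent of the list (y axis, 0 is the highest score) in each of the 4 H1 lists. Bars span the interquartile range of 446 broad domains (dark) and 995 narrow regions (light), and circles mark medians. Domains have the higher-ranking median in every list (13.3% to 22.7% against 28.1% to 40.2%), and the bars overlap.

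Of the 10 domains with the lowest mean rank, 6 lay on 2L, 3 on pericentric Het scaffolds and 1 on 2R. First came 3RHet 417248 to 423883, 6636 bp wide, with ranks of 23, 15, 23 and 11 in control replicates 1 and 2 and induced replicates 1 and 2. The domain at 2L 16199637 to 16218627 had ranks of 46, 67, 8 and 12 in that order. Its H1 peaks covered 97.8% or more of it in 3 lists, but 27.4% in control replicate 2, where 1 peak was called. The domain at 2L 18299713 to 18309369, with ranks of 15, 20, 66 and 41, was a single peak in every list that covered 99.2% or more of it.

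The next was 2RHet 564197 to 570311 (mean rank 55.5). Then came 5 domains with mean ranks of 71.3 to 98.3, of which 4 were on 2L (15829817 to 15838652, 16067606 to 16081517, 16146217 to 16153943 and 15799396 to 15821028) and the other was 3LHet 716595 to 724913. The last of the 10 was 2R 6264509 to 6274893 (mean rank 102). Ranks of 1 domain could differ widely between libraries. At 2L 15799396 to 15821028 the best peak was the highest of all in control replicate 1 and ranked 43, 238 and 69 in the other lists. How reads that match several places were handled is not given in the sources used here.

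The widest domains were not the highest in score. The 5 widest were 2R 6808655 to 6835599, 3L 3959450 to 3986045 (26596 bp), 3L 3912829 to 3935835 (23007 bp), 2L 15799396 to 15821028 (21633 bp) and 2L 17112058 to 17132635 (20578 bp). Of these, 2L 15799396 to 15821028 had a mean rank of 87.8, and the other 4 had mean ranks of 489 to 866. For comparison, the highest-ranking narrow regions were 2RHet 725361 to 729859, 2L 22098167 to 22102790, 3LHet 1089926 to 1093572, 2RHet 2444067 to 2448523 and U 4476511 to 4480975. They were 3647 to 4624 bp wide, each was a single peak in all 4 lists, and their mean ranks ran from 42.4 to 101.

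By chromosome, 176 domains lay on 3R, 110 on 2L, 92 on 3L, 47 on 2R and 5 on X, with none on chromosome 4. Another 16 lay on the Het scaffolds and U. Per Mb, counted up to the highest peak end of the arm, there were 6.31 domains on 3R, 4.79 on 2L, 3.75 on 3L, 2.22 on 2R and 0.231 on X. Domains were 38.7% of the 455 regions held by all 4 lists on 3R, and 29.8% to 33.1% of those on the other large autosome arms. On the Het scaffolds, U and Uextra they were 16 of 185 regions (8.65%). These scaffolds held 17.0% of narrow regions and 3.59% of domains, a difference in make-up that bears on the comparisons with narrow regions below.

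Along the arms the domains were unevenly spread. Of 122 windows of 1 Mb, 48 held no domain and 14 held 10 or more, and these 14 held 199 of the 430 domains on named chromosomes (46.3%). The window from 17 to 18 Mb of 2L held 26, which covered 267 kb of it, and that from 13 to 14 Mb of 3R held 18. The next were 3R 2 to 3 Mb and 3R 8 to 9 Mb with 16 each, and 2L 18 to 19 Mb and 3R 3 to 4 Mb with 15 each. Neighbouring domains lay under 10 kb apart in 83 of 425 cases (19.5%). Narrow regions, which are more numerous, did so in 269 of 821 cases (32.8%). Such neighbours formed 52 runs, the largest of which was 6 domains between 18181594 and 18263245 on 2L, where domains filled 78.3 kb of 81.7 kb. Runs of 5 domains lay at 2L 17613371 to 17684637, 2R 9530221 to 9587331 and 3R 8574678 to 8625693. The gap to the nearest other region held by all 4 lists had a median of 3.17 kb for domains and 3.27 kb for narrow regions.

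The dBigH1 lists were then set on the domains, to see how often a dBigH1 peak lay on them in control and in induced cells. A dBigH1 peak lay on 21 domains in control replicate 1, on 26 in control replicate 2, on 35 in induced replicate 1 and on 38 in induced replicate 2. These are 4.71% (exact 95% binomial interval 2.94 to 7.11), 5.83% (3.84 to 8.43), 7.85% (5.53 to 10.7) and 8.52% (6.10 to 11.5) of the domains, and the intervals cover counting error only. Among all 1441 H1 regions held by 4 lists the shares were 4.44%, 7.01%, 4.51% and 5.55%. Most of those regions were narrower than the domains, and a wider region is met by a peak more often by chance. Shares per region here and below take no account of width. No dBigH1 peak of any library lay on 359 domains (80.5%, against 83.3% of all 1441 regions).

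More domains had a dBigH1 peak, and more of their length was covered, in both induced libraries than in both control libraries, although the induced lists were shorter. The mean share of domains with a dBigH1 peak was 5.27% ± 0.793 for control libraries and 8.18% ± 0.476 for induced ones (± SD, n = 2 here and below), which differ by 2.91 percentage points. The share of domain length under dBigH1 peaks was 1.37% and 2.04% in the control libraries and 2.75% and 3.11% in the induced ones. The means were 1.71% ± 0.472 and 2.93% ± 0.258, which differ by 1.22 points. Midpoints of dBigH1 peaks lay in domains at 5.55 and 8.33 per Mb in control and at 9.08 and 9.59 per Mb in induced libraries. In narrow regions they lay at 11.9 and 21.6 per Mb in control and at 8.30 and 11.6 per Mb in induced libraries. Per Mb, midpoints were thus denser in narrow regions than in domains in every library but induced replicate 1.

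On domains the groups did not overlap in any of these measures. The exact two-sided permutation p was 0.333 for each (adjusted p 0.333 over 5 comparisons). That is the smallest p that 2 libraries against 2 allow, so no comparison of this kind could pass 0.05. The difference in midpoints rested on the control libraries, at 2.40 per Mb with all libraries, 1.01 without control replicate 1 and 3.79 without control replicate 2. With dBigH1 peaks of a score of 100 or more alone, the difference in covered length was 0.245 points. The separation was lost under several settings. With a width minimum of 8000 bp the groups overlapped in covered length, share of domains and midpoints (exact permutation p = 0.667 each), and with H1 peaks closer than 1000 bp joined they overlapped in share and midpoints (0.667 each). For midpoints they also overlapped at 4000 bp, with H1 scores of 100 or more (difference 0.269 per Mb) and where a single H1 peak of 6000 bp was required (exact permutation p = 1 each). With an induced library left out, the remaining one still lay above both control libraries in midpoints. The difference was then 2.65 per Mb without induced replicate 1 and 2.14 without induced replicate 2. The peaks on domains were also wider in induced libraries, with medians of 2755 and 2850 bp against 2161 and 2232 bp. Over the whole lists the medians differed more, at 2680 and 3026 bp in induced and 1641 and 1559 bp in control libraries, and the part of peak width in the covered length was not tested.

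Measured against the list of its own library, a dBigH1 peak of induced cells fell on a domain more often. Of the dBigH1 peaks of a library, 23 of 599 (3.84%, exact 95% interval 2.45 to 5.71) and 33 of 719 (4.59%, 3.18 to 6.39) overlapped a domain in control cells. In induced cells 36 of 196 (18.4%, 13.2 to 24.5) and 40 of 238 (16.8%, 12.3 to 22.2) did. These intervals too cover counting error within a library only, and the peaks of 1 library are not replicates. The means were 4.21% ± 0.530 and 17.6% ± 1.10, a difference of 13.4 points (exact permutation p = 0.333, the smallest possible). Narrow regions were overlapped by 7.18% and 11.0% of the dBigH1 peaks of the control libraries, against 15.3% and 17.6% for the induced libraries.

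Over all regions together, dBigH1 coverage differed between broad domains and narrow regions in opposite ways in the 2 conditions. In narrow regions the dBigH1 peaks covered 2.23% and 3.79% of the length in control and 1.68% and 2.84% in induced libraries. Domains minus narrow regions thus gave -0.86 and -1.75 points in control and 1.06 and 0.276 points in induced libraries. The 2 conditions differed by 1.97 points in this measure (exact permutation p = 0.333). Over all 4 libraries the mean was -0.32 points (exact sign-flip permutation p = 0.75; smallest possible 0.125).

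The negative values in control cells were smaller or turned positive once the scaffolds were left out. On named chromosomes alone, the domains exceeded narrow regions by 0.145 points in control replicate 1 and lay -0.93 points below in control replicate 2, against 1.06 and 0.0489 points in induced libraries. The difference between conditions was then 0.946 points and the groups overlapped (exact permutation p = 0.667). They also overlapped with dBigH1 lists of equal length (0.564 points, exact permutation p = 0.667). The signs differed by arm. In control and then induced libraries, the values were 0.0532, -0.90, 1.82 and 1.16 points on 2L. They were 0.320, -0.28, 3.17 and 0.847 points on 3L, and -0.26, -2.22, 0.887 and -0.95 points on 2R. On 3R they were 0.328, -0.68, -0.30 and -0.73 points, so both induced values were negative there. Narrow regions on scaffolds had a dBigH1 peak in at least 1 control library in 45 of 169 cases (26.6%, against 10.6% of all narrow regions). They had one in at least 1 induced library in 4 cases (2.37%, against 6.43%). The 16 domains on scaffolds had one in 5 and 0 cases (31.3% and 0%, against 8.74% and 14.8% of all domains).

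**Figure D3:**
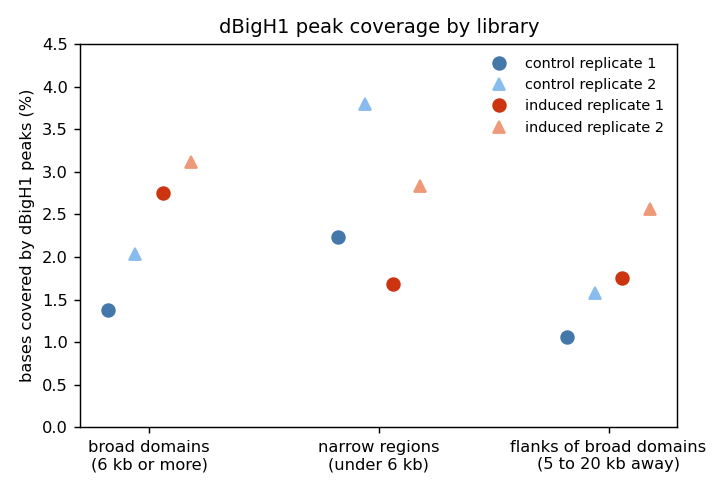
Percent of bases covered by dBigH1 peaks (y axis) in 446 broad domains, 995 narrow regions and the flanks of broad domains 5 to 20 kb from their edges, 1 point per dBigH1 library. On broad domains both induced libraries (2.75% and 3.11%) lie above both control libraries (1.37% and 2.04%), and on narrow regions the conditions overlap.

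Domains were also set against the chromatin beside them. In the flanks 5 to 20 kb from a domain's edge, leaving out other H1 regions held by all 4 lists, dBigH1 peaks covered 1.06% and 1.57% in control and 1.75% and 2.57% in induced libraries. Domains exceeded these flanks by 0.314 and 0.466 points in control and by 0.994 and 0.546 points in induced libraries. The excess was positive in 4 of 4 libraries, with a mean of 0.580 points (exact sign-flip permutation p = 0.125, the smallest possible). It was -0.0376 points when only dBigH1 peaks with a score of 100 or more were kept. The mean was 0.303 points without chromosome arm 2L, 0.199 with a width minimum of 8000 bp and 0.275 with dBigH1 lists of equal length (exact sign-flip permutation p = 0.5 each), and the excess was then not positive in every library. Narrow regions also lay above their own flanks, where dBigH1 peaks covered 0.909% and 1.07% in control and 0.894% and 1.18% in induced libraries, against 2.23%, 3.79%, 1.68% and 2.84% in the narrow regions themselves. An excess over flanks was thus not particular to domains. The first 5 kb beside a domain had lower values still, at 0.421% and 0.996% in control and 1.07% and 1.42% in induced libraries.

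**Figure D4:**
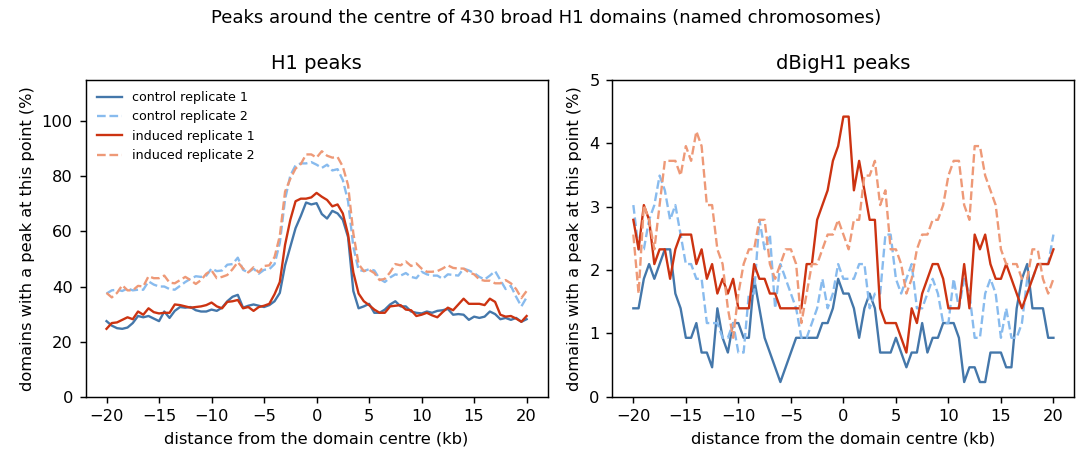
Percent of the 430 domains on named chromosomes that have a peak at a given distance in kb from the domain centre (x axis), for H1 (left) and dBigH1 (right), with a line per library. H1 covers the centre in 70.2% to 86.7% of domains, since the domains were chosen by it. The dBigH1 lines stay under 5%, with 4.42% at the centre in induced replicate 1 and 1.63% to 2.56% in the other libraries.

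Where a dBigH1 peak met a domain, it mostly lay inside it. Of the pairs of a dBigH1 peak and a domain, 21 of 23, 33 of 33, 32 of 36 and 37 of 40 had the whole peak within the domain, in the order control replicates 1 and 2 and induced replicates 1 and 2. This was not particular to domains. For narrow regions the counts were 42 of 43, 75 of 79, 29 of 30 and 39 of 42 in the same order. The dBigH1 bases within domains were also H1 peak bases of the same condition and replicate number in 83.9%, 86.4%, 91.8% and 86.7%. H1 peaks of those libraries covered 60.7%, 79.2%, 66.7% and 82.2% of the domain length, so the share among dBigH1 bases was 1.05 to 1.38 times that among all domain bases. The highest ratio was found in both replicate 1 pairs (1.38 each) and the lower ones in both replicate 2 pairs (1.09 in control and 1.05 in induced cells). H1 peaks of replicate 2 covered more of the domain length, which sets a lower ceiling on the ratio. In narrow regions 98.2%, 99.5%, 95.2% and 97.0% of the dBigH1 bases were H1 peak bases, with ratios of 1.35, 1.20, 1.25 and 1.10.

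These dBigH1 peaks were of modest score. In control lists they stood low, with median ranks at 69.0% and 63.4% of the list, and the highest of them ranked 147 of 599 and 161 of 719. In induced lists they stood near the middle, with median ranks at 47.4% and 49.2%, and the highest ranked 9 of 196 and 10 of 238. Their median scores were alike, at 66.8 and 69.6 in control and 65.6 and 69.3 in induced libraries. The highest score of any peak was 3100 in each control list, and 222 and 768 in the induced lists. A score of 100 or more was reached by 3 and 4 of these peaks in control and by 5 and 5 in induced libraries. Low ranks in control lists and middle ranks in induced lists were not particular to domains. The dBigH1 peaks on narrow regions had median ranks at 72.3% and 74.0% in control and at 41.5% and 51.5% in induced lists.

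Most domains with a dBigH1 peak lay on 2L and 3L. Peaks in at least 1 library were found on 32 of 110 domains on 2L (29.1%), 29 of 92 on 3L (31.5%), 18 of 176 on 3R (10.2%) and 2 of 47 on 2R (4.26%). On the Het scaffolds and U they were found on 5 of 16 (31.3%), all from control libraries. Narrow regions had shares of 20.9% on 2L, 14.7% on 3L, 8.60% on 3R, 4.21% on 2R and 26.6% on the scaffolds. Low shares on 3R and 2R were thus common to both classes, and the greater width of domains was not corrected for. Thus 3R, which held the most domains, held few of those with a dBigH1 peak. On 3L, dBigH1 peaks covered 0.868% and 1.29% of domain length in control and 6.11% and 4.78% in induced libraries, and the groups did not overlap. Narrow regions on 3L were separated in the same direction, at 0.547% and 1.57% in control and 2.94% and 3.94% in induced libraries. The 2L values were 3.36% and 5.17% in control and 4.26% and 6.13% in induced libraries and did overlap. On 3R the values were lower, at 0.328% and 0.644% in control and 0.732% and 1.11% in induced libraries, and the groups did not overlap. Narrow regions on 3R had 0% and 1.32% in control and 1.03% and 1.85% in induced libraries, where the groups overlapped. They lay above the domains of 3R in every library but control replicate 1. These values per arm were not tested.

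The domains that ranked highest for H1 had more of their length under dBigH1 peaks in both conditions. When the domains were divided into 4 parts by mean H1 rank, dBigH1 peaks covered 2.76% and 5.05% (control) and 5.63% and 6.63% (induced) of the highest part of 112 domains. In the other 3 parts the shares ran from 0.168% to 1.69% in control and from 1.37% to 2.51% in induced libraries. The highest part was above each of the others in 4 of 4 libraries, and it held 10 of 21, 14 of 26, 19 of 35 and 20 of 38 of the domains with a dBigH1 peak. It included 49 of the 110 domains on 2L. Within 2L, the 49 domains had 5.17% and 8.46% in control and 5.72% and 11.4% in induced libraries, and the other 61 had 1.65%, 2.05%, 2.88% and 1.13%. Within 3L, 23 domains of the highest part had 1.03%, 4.27%, 14.7% and 7.08%, against 0.810%, 0.251%, 3.14% and 3.98% in the other 69. This division was made after earlier results were known, and the domains of 1 library are not replicates.

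**Figure D5:**
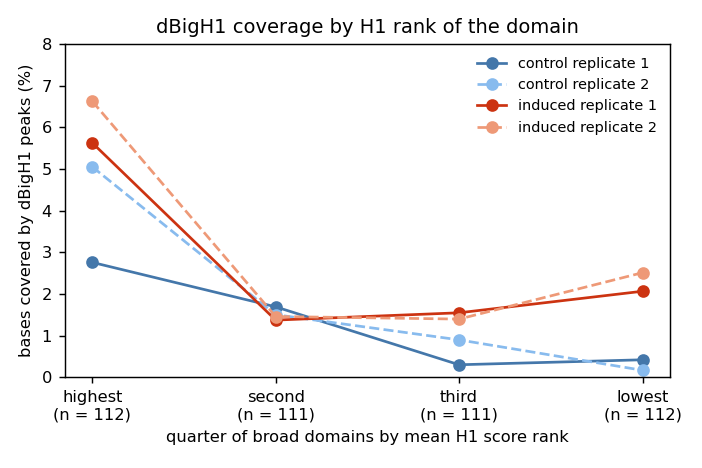
Percent of domain bases covered by dBigH1 peaks (y axis) for 4 parts of the 446 domains ordered by mean H1 score rank (x axis), with a line per dBigH1 library. All 4 libraries have their highest value in the highest part (2.76% to 6.63%).

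The dBigH1 peaks seldom recurred on the same domain. Both control libraries had one on 8 domains, which is 38.1% of those of replicate 1 and 30.8% of those of replicate 2, and 1.79% of all domains against 1.46% of all 1441 regions. Both induced libraries had one on 7 domains, which is 20% and 18.4% of those of each replicate, and 1.57% of domains against 1.04% of all regions. Peaks in both control and no induced library were found on 4 domains (0.897%, against 0.902% of all regions), and in both induced and no control library on 3 (0.673%, against 0.625%). All 4 libraries met on 1 domain (0.224%, against 0.139%). These shares rest on few domains and lay near those of all regions. Counting any library, 48 domains had a dBigH1 peak in induced cells alone (10.8%, against 6.73% of all regions), 21 in control cells alone (4.71%, against 7.7%) and 18 in both (4.04%, against 2.29%). Width was not taken into account in these shares, and domains are wider than most of the regions.

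The domain with dBigH1 peaks in all 4 libraries was 2L 15799396 to 15821028, one of the widest and among the 10 of highest H1 rank. Control libraries each had 2 dBigH1 peaks on it, covering 17.1% and 19.4% of its length with best scores of 66.4 and 81.3. Induced replicate 1 had 1 peak (11.5%, score 63.7) and induced replicate 2 had 2 (49.1%, best score 76.8). The best ranks were 420 of 599, 366 of 719, 103 of 196 and 92 of 238.

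The other 6 domains with a dBigH1 peak in both induced libraries included 2L 16192041 to 16199618, where no control peak was called. There the dBigH1 peaks covered 63.6% and 78.2% of the domain and ranked 18 and 14 in the induced lists. It ends 18 bp before 2L 16199637 to 16218627, on which control replicate 2 had 3 dBigH1 peaks that covered 66.0%, induced replicate 2 had 1 that covered 13.2%, and the other 2 libraries had none. The 2 domains of this pair thus differed in which libraries had a called dBigH1 peak.

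At 2L 16067606 to 16081517 the induced peaks ranked 15 and 10 and covered 34.9% and 36.1%, and control replicate 2 had 1 that covered 23.0%. At 2L 18299713 to 18309369, the domain with the longest shared H1 stretch, control replicate 1 and both induced libraries had a dBigH1 peak that covered 44.4%, 44.0% and 43.4%. The remaining 3 were 3L 4562873 to 4574034, 2L 15580021 to 15586311 and 3R 13316559 to 13324512, with induced dBigH1 scores of 51.9 to 67.4. The last 2 had no control peak. On the first, control replicate 2 had 2 peaks that covered 43.0% of it (best score 69.6), and the induced libraries covered 41.5% and 33.8%.

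Of the 8 domains with a dBigH1 peak in both control libraries, 6 lay on 2L. Those without an induced peak were 2L 17988620 to 17999828 (34.6% and 25.6% covered), 2L 14743033 to 14754545 (22.7% and 29.7%), U 2293883 to 2300346 (42.8% and 32.1%) and 3R 11001506 to 11009720 (61.9% and 46.3%). One induced library also had a peak at 3 of them on 2L (16146217 to 16153943, 14784813 to 14791246, 14776978 to 14784111), of which the last pair lie 701 bp apart.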

How the data were processed

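The analysis used 8 peak lists, each from an immunoprecipitated library, and left out the 4 inputs. Bowtie 0.12.5, MACS 1.4.2 and build dm3 are named in the submitters' processing notes. Settings, the control used and filters are not given in the sources used here. Each deposited list has a score per peak, written by the authors' peak caller. MACS writes this score as 10 times −log10 of its p-value, and no list holds a value below 50. It was used only for ranks within a list and as a filter. Starts were read as counted from 0 and are printed counted from 1.

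Regions, coverage and tests were computed with Python 3.11.15, NumPy 2.4.6, SciPy 1.17.1 and pandas 2.3.3. Conditions were compared over libraries with exact two-sided permutation tests on linear values, with Benjamini-Hochberg adjustment over 5 comparisons (statsmodels 0.14.6). Broad against narrow regions and domains against flanks were compared by exact sign-flip over 4 libraries. The code was tested on simulated lists, where it recovered 400 of 400 broad and 600 of 600 narrow regions. The simulated peaks were cut so that they always merged into the planted region. Recovery therefore checks the code and not the calling of domains in real lists.

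The domains, the measures and the rule for named regions were chosen with earlier results of these data known. That rule takes the 10 domains of lowest mean H1 rank, the 5 widest, the 3 on each side of the width minimum, those with a dBigH1 peak in both libraries of a condition or in all 4, and the 5 highest-ranking narrow regions. Alternatives were other width minimums, score filters, chromosome sets, overlaps, H1 lists and list lengths, each library left out, and a replicate block. The flank comparison, overlap by peak midpoint, counts with libraries left out, the crossed replicate block, the set without arm 2L and the set with a single wide peak were added after the data were seen.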

Additional observations from a re-analysis of the deposited data

Results flagged for a closer look

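One result was singled out because every library of one condition moved one way and every library of the other the opposite way. It is the dBigH1 coverage of broad domains minus that of narrow H1 regions, which was -0.86 and -1.75 points in the control libraries and 1.06 and 0.276 points in the induced libraries. The induced minus control difference was 1.97 points (two-sided exact permutation test, p = 0.333, the lowest value that 2 libraries against 2 can give). On named chromosomes the 4 values were 0.145, -0.93, 1.06 and 0.0489 points, so the opposite signs did not hold there. Both induced values were positive on 2L and on 3L, and both were negative on 3R (-0.30 and -0.73 points). The scaffolds held 17.0% of narrow regions and 3.59% of domains.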

How the results depend on the processing

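The induced minus control differences of dBigH1 on broad domains kept their direction in the 19 to 21 alternatives run for each, with ranges of 0.245 to 2.84 points for covered length, 0.336 to 6.84 points for the share of domains, 0.269 to 7.95 midpoints per Mb, 6.59 to 43.0 points for the share of the dBigH1 list, and 0.331 to 3.57 points for broad minus narrow. None of these tests could pass 0.05, so they bear on size and direction only. The 6 alternatives with libraries left out could not change direction, because the groups did not overlap with all libraries kept. With the replicate number as a replicate block the 5 differences were 1.22, 2.91, 2.40, 13.4 and 1.97 (exact sign-flip p = 0.5 for each, the smallest possible), equal to the main values by construction, as were those of the crossed replicate block. Same-numbered dBigH1 libraries deviated together with a correlation of 0.0196 over 1441 regions and -0.14 over the 446 domains, which does not reach 0.1, so the numbers were not taken to pair the samples. List length and H1 coverage were nonetheless higher in replicate 2 of both conditions.

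The mean of broad minus narrow over 4 libraries (-0.32 points) changed sign most easily. It became 0.197 with a width minimum of 4000 bp, 0.111 with dBigH1 scores of 100 or more, 0.0797 on named chromosomes, 0.262 with dBigH1 lists of equal length, 1.85 and 0.977 with regions from the control or the induced H1 lists only, and 0.346 for domains with an H1 peak of 6000 bp or more in at least 1 list. It ran from -0.78 to 0.160 with libraries left out, being 0.103 without replicate 2 of both conditions and 0.160 without control replicate 2. The excess over flanks (0.580 points) became -0.0376 with dBigH1 scores of 100 or more. The cause of these changes was not tested.

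The number of domains was 851 and 205 with minimums of 4000 and 8000 bp, 209 with H1 scores of 100 or more, 804 with H1 peaks closer than 1000 bp joined, and 261 with a single H1 peak of 6000 bp or more required. Without each H1 list it ran from 379 to 472. Domains with dBigH1 in both induced libraries and no control library (3) became 9 and 0 at 4000 and 8000 bp, 6 with the induced H1 lists, 13 with joined peaks, 1 without arm 2L and 1 with a wide peak required. Those in both control libraries alone (4) became 0 with dBigH1 scores of 100 or more, 0 at equal list length, 2 with the control or the induced H1 lists, 11 with joined peaks and 2 without 2L. Domains with all 4 libraries (1) became 2 at 4000 bp, 0 with dBigH1 scores of 100 or more, 0 at equal length, 0 and 2 with the control and the induced H1 lists, 11 with joined peaks and 0 without 2L. Libraries left out gave 4 to 31, 5 to 18 and 2 to 8 for these 3 counts, higher because fewer libraries had to meet. Depth is unknown and limits every count of absent peaks.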

Other observations

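Many wide regions were not held by every list. Of 895 merged H1 regions of 6000 bp or more, 446 held a peak of all 4 lists, 223 of 3 lists, 119 of 2 lists and 107 of 1 list. In the 131 narrow regions under 2 kb, dBigH1 peaks covered 8.22% and 11.1% of the length in the control libraries, and 0% and 2.44% in the induced libraries. Of these 131 regions, 53 lay on Het scaffolds, U or Uextra. In the 57 domains of 12000 bp or more the shares were 0.524% and 2.53% in control and 1.94% and 4.46% in induced libraries, so the conditions overlapped there.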
